A study of Mus musculus with 2 samples.

Results

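The genes described here build the small membrane pits and the transverse tubules of the muscle fibre surface. They were chosen by gene symbol, and all 10 were found among 55536 annotated genes: the caveolins Cav1, Cav2 and Cav3, the cavins Cavin1, Cavin2, Cavin3 and Cavin4, and the tubule-shaping genes Bin1, Mtm1 and Dnm2. Total RNA was sequenced from the gastrocnemius, a calf muscle, of male B6CASTF1/J mice aged 14 days. These mice are hybrids of the B6 and CAST strains, and no agent or engineered allele is named in the labels. The series held 1 group with 2 biological replicates of 300 ng RNA each. The labels name 3 males and give both libraries the same donor identifier, so it is not settled whether the libraries came from separate animals or from a pool, and a difference between them may be technical. The p-values below set these 2 libraries against counting error only.

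Caveolae are flask-shaped pits of the plasma membrane whose coat is made of caveolins, which sit in the membrane, and cavins, which bind from the cytosol. In striated muscle CAV3 and CAVIN4 are the characteristic forms, while CAV1, CAV2, CAVIN1 and CAVIN2 are abundant in endothelial cells and adipocytes. T-tubules are inward extensions of the muscle surface that carry the action potential to the triads; BIN1 (amphiphysin 2) bends their membrane, the phosphatase MTM1 removes the 3-phosphate of phosphoinositides, and the GTPase DNM2 constricts and cuts membranes. Mutations of CAV3, CAVIN1, BIN1, MTM1 and DNM2 are known causes of human muscle disease.

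The libraries held 40825601 and 37329025 expected counts. Muscle fibre markers (Acta1, Ckm, Mylpf, Myh4, Tnnt3, Atp2a1, Pvalb and Actn3) were detected 8 of 8, with a summed level of 110599 TPM in replicate 1, against 119575 TPM in replicate 2. TPM is a level corrected for transcript length and scaled to the library, and a gene was called detected at 1 TPM or more in both libraries. RNA of other cells was present too: endothelial markers were detected 12 of 12 and summed to 281 TPM in replicate 1, against 227 TPM in replicate 2. Fibro-adipogenic progenitor markers were detected 10 of 10, pericyte and smooth muscle markers 9 of 10, Schwann cell markers 9 of 10 and adipocyte markers 3 of 10, and no marker was at 0 in both libraries. Most of the adipocyte markers that were not called detected did reach 1 TPM in replicate 2, but not in replicate 1. In a whole muscle, fewer cells of a type and less RNA per cell cannot be told apart.

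All 10 genes were detected, and their levels spanned from Bin1, the highest, to Mtm1, the lowest. Bin1 stood at place 205 and Mtm1 at place 7148 among 22015 protein-coding genes ordered by mean TPM. Levels are given per library in TPM, with the SD over the 2 libraries, from the first of 2 deposited quantifications of each library. A neighbouring pair in the order was called separate where neither the library values nor the quantifier's own intervals overlapped. These intervals belong to the quantifier's posterior mean, so a level can lie just outside its own, as it did for Bin1. By that rule 8 of the 9 neighbouring pairs were separate.

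**Figure D1:**
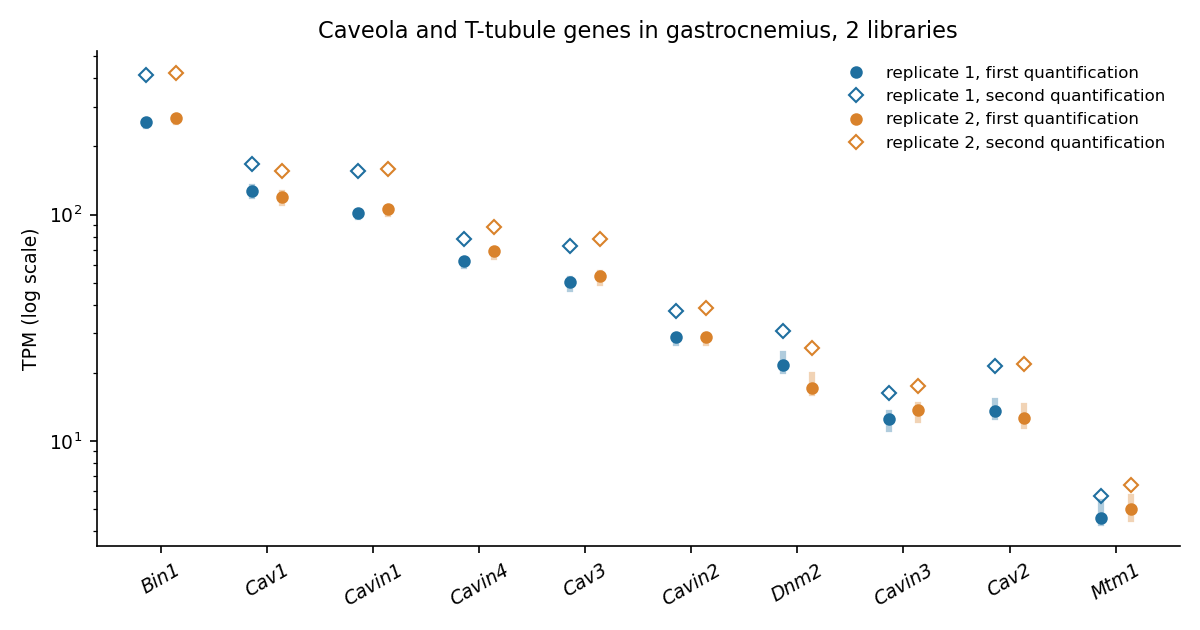
Level in TPM (log axis) of the 10 genes in each library, in order of the mean; circles show the first quantification with the quantifier's interval as a pale bar, diamonds the second quantification. Bin1 stands highest and Mtm1 lowest in both quantifications, and in the second the means of Cavin3 and Cav2 trade places.

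Among the caveolins, Cav1 (chromosome 6, 17306335 to 17341452, forward strand; all positions are on mm10 with GENCODE M21) was the most abundant. In replicate 1 it had 127.36 TPM and in replicate 2 119.27 TPM, a mean of 123 ± 5.72 TPM (SD, n = 2), from 8090 and 7197 expected counts. Cav3, the muscle caveolin (chromosome 6, 112459505 to 112472872, forward strand), had 50.34 and 53.65 TPM, a mean of 52.0 ± 2.34 TPM. Cav2 (chromosome 6, 17281185 to 17289115, forward strand), a caveolin that is known to need CAV1 to reach the plasma membrane, had 13.58 and 12.59 TPM. The libraries did not overlap between these 3 genes. Of the summed caveolin TPM, Cav1 took 65.4 ± 1.62%, Cav3 27.6 ± 1.84% and Cav2 6.94 ± 0.221% (SD, n = 2).

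The muscle form was thus not the leading caveolin in this tissue RNA. Cav3 had 0.423 ± 0.0386 times the TPM of Cav1 and 3.98 ± 0.392 times that of Cav2. Both ratios lay on the same side of 1 in each library and in the second quantification, where Cav3 had 0.466 ± 0.0459 times the TPM of Cav1. Cav1 is expressed by endothelial cells, fibroblasts and smooth muscle, whose markers were detected above. How much of the Cav1 RNA came from these cells was not tested.

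The caveolins share a stretch known as the scaffolding region, and its coding sequence is compared here between the 3 genes. The 20 codons below are read from the GENCODE M21 transcripts on mm10, forward strand, 5′ to 3′. They are codons 82 to 101 of Cav1 (chr6:17339161-17339220), codons 55 to 74 of Cav3 (chr6:112472185-112472244) and codons 67 to 86 of Cav2 (chr6:17281943-17282002). Capitals mark bases that differ from Cav1.
Cav1: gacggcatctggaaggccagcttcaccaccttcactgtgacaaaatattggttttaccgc
Cav3: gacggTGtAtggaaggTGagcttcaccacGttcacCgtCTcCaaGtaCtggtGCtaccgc
Cav2: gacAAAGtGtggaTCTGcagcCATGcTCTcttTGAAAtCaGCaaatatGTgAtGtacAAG
Cav3 shared 46 of 60 bases with Cav1 (76.7%), and Cav2 shared 29 of 60 (48.3%). The Cav3 and Cav2 stretches were chosen as the in-frame match with the most bases identical to Cav1. These shares are thus the highest over all positions, and they cover this stretch only.

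Among the cavins, Cavin1 (chromosome 11, 100956733 to 100970887, reverse strand), which is required to form caveolae, had 102.08 and 105.87 TPM in replicates 1 and 2, a mean of 104 ± 2.68 TPM. Cavin4, the muscle cavin (chromosome 4, 48663514 to 48673502, forward strand), had 62.25 and 68.81 TPM, a mean of 65.5 ± 4.64 TPM. Cavin2 (chromosome 1, 51289126 to 51302960, forward strand), which binds phosphatidylserine, had 28.71 and 28.91 TPM. Cavin3 (chromosome 7, 105480083 to 105482300, reverse strand), a partner of protein kinase C, had 12.48 and 13.71 TPM. The 4 genes did not overlap in either library. Cavin1 took 49.2 ± 0.671% of the summed cavin TPM, Cavin4 31.0 ± 0.974%, Cavin2 13.6 ± 0.470% and Cavin3 6.19 ± 0.167%.

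Cavin4 had 0.630 ± 0.0284 times the TPM of Cavin1, 2.27 ± 0.150 times that of Cavin2 and 5.003 ± 0.0219 times that of Cavin3. In both families a widely expressed form stood first and the muscle form next. Cavin1 and Cav1 were close, with Cavin1 at 0.845 ± 0.0609 times the TPM of Cav1. In the second quantification this ratio was 0.972 ± 0.0575 and the library values overlapped, so this pair did not separate there, although the mean of Cav1 was still the higher. Cavin3 and Cav2, with means of 13.1 ± 0.870 and 13.1 ± 0.700 TPM, did not separate in the first quantification. Cav2 was the higher in both libraries of the second quantification, with 21.4 and 21.8 TPM, against 16.3 and 17.5 TPM for Cavin3.

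**Figure D2:**
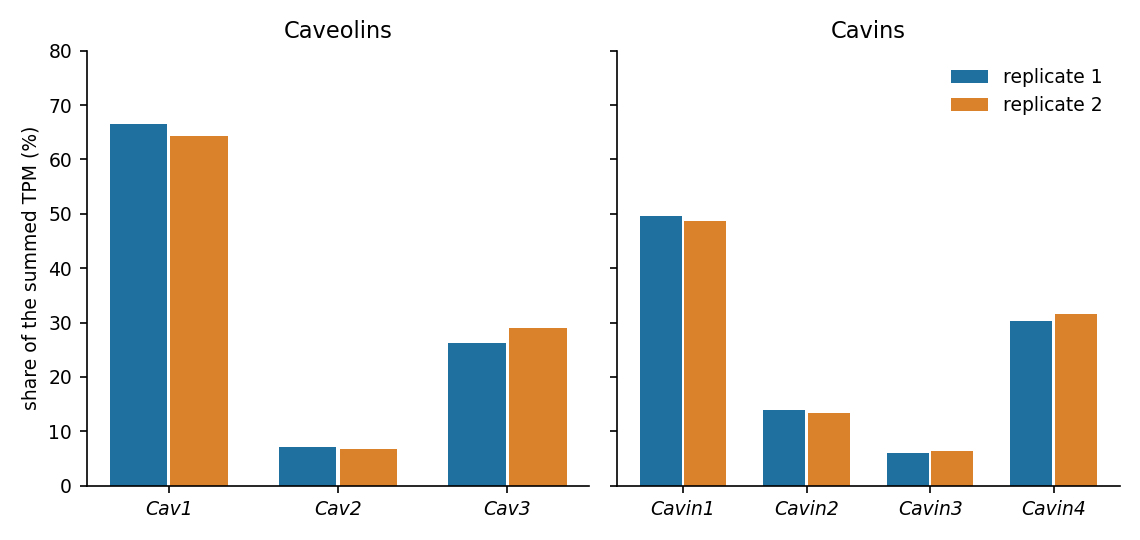
Share of each gene (percent) in the summed TPM of the 3 caveolins (left) and the 4 cavins (right), 1 bar per library. Cav1 holds 65.4% and Cavin1 49.2% on average, with Cav3 at 27.6% and Cavin4 at 31.0%.

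Among the tubule-shaping genes, Bin1 (chromosome 18, 32377230 to 32435737, forward strand) had 256.3 and 265.88 TPM in replicates 1 and 2, a mean of 261 ± 6.77 TPM. Dnm2 (chromosome 9, 21424908 to 21507759, forward strand) had 21.68 and 17.15 TPM, a mean of 19.4 ± 3.20 TPM, the largest SD relative to its mean of the 10 genes. Mtm1 (chromosome X, 71210767 to 71315691, forward strand) had 4.57 and 4.98 TPM, a mean of 4.78 ± 0.290 TPM, from 483 and 460 expected counts. Bin1 took 91.5 ± 1.14% of the summed TPM of these 3 genes.

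Each was set against a relative. Amph, the amphiphysin of neurons, had 0.67 and 0.42 TPM, below detection in both libraries, and Bin1 had 508 ± 177 times its TPM. That ratio rests on 68 and 35 counts of Amph, and its SD is wide. Dnm2 had 4.63 ± 0.367 times the TPM of Dnm1, the neuronal dynamin. Mtm1 had 0.427 ± 0.0135 times the TPM of its closest relative Mtmr1, which had 10.95 and 11.41 TPM in replicates 1 and 2.

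Most Bin1 RNA was assigned to 2 short coding transcripts. Bin1-205 (13 exons, 410 codons) held 71.0% of Bin1 TPM in replicate 1 and 72.3% in replicate 2, a mean of 71.7 ± 0.944%. Bin1-206 (14 exons, 434 codons) held 26.1% and 24.4%, a mean of 25.2 ± 1.16%. Bin1-202 (15 exons, 477 codons) held 1.92%, and Bin1-201 (19 exons, 588 codons), the longest form and of the kind known from brain, held 0.496%. The retained-intron transcript Bin1-204 held 0.631% and the fragment Bin1-203 held 0.0677%.

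The second quantification kept the order but moved the shares by more than the spread between libraries. There Bin1-205 held 56.4 ± 1.73% and Bin1-206 held 39.0 ± 0.770%. The annotated exon of 72 bases (chr18:32431671-32431742), which is in Bin1-206 and not in Bin1-205, was accordingly present in 28.3 ± 1.01% of the TPM that spans it in the first quantification and in 43.4 ± 1.37% in the second. The exon of 129 bases (chr18:32426224-32426352) was present in 2.43% and 3.68%, and the exon of 93 bases (chr18:32414945-32415037) in 0.499% and 0.684%. Both quantifications placed the exons of 129 and 93 bases low, while they differed on the share of the 72-base exon.

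BIN1 of mature skeletal muscle is known for a short exon encoding a phosphoinositide-binding stretch. In the M21 annotation the intron between the exons of 83 and 148 bases (chr18:32421961-32424819, 2859 bases) held 0 annotated exons, and 0 of the 6 Bin1 transcripts had an exon of 45 bases. Reads of such an exon had no transcript to be assigned to in these tables, so its inclusion was not analysed here.

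**Figure D3:**
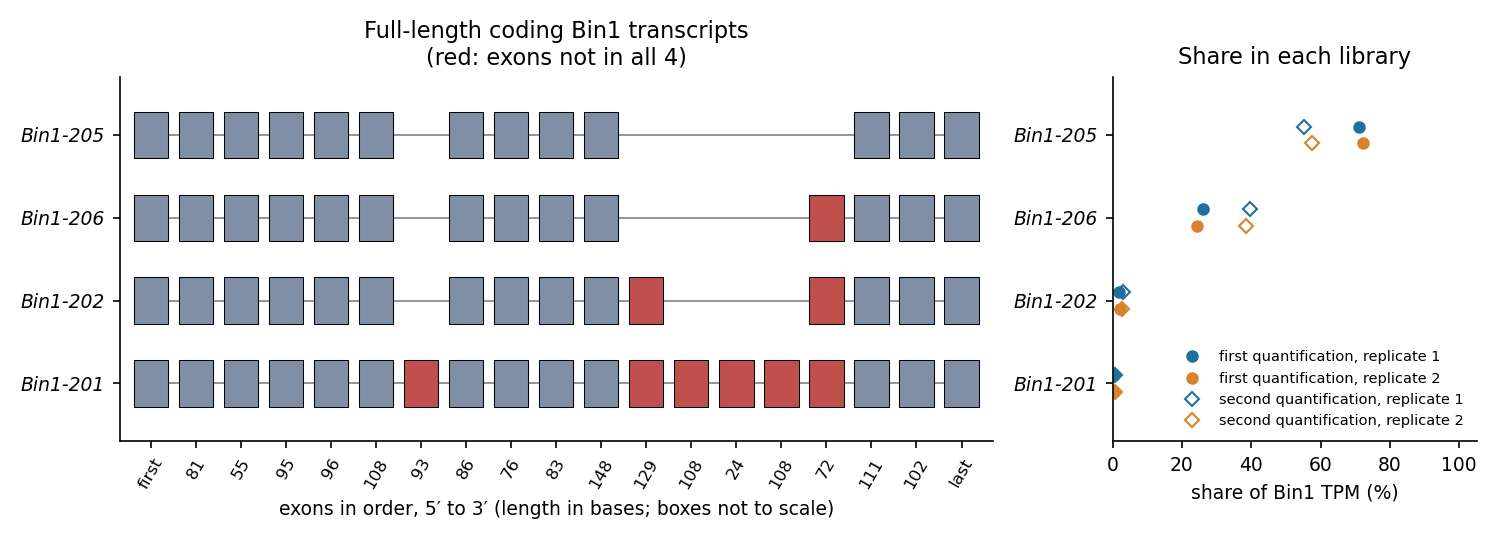
Left, exons of the 4 full-length coding Bin1 transcripts in order, labelled by length in bases, with exons that are not in all 4 in red. Right, share of each transcript in Bin1 TPM (percent) per library and quantification; Bin1-205 and Bin1-206 hold nearly all of it in both.

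Cav1 is transcribed from more than 1 start, and its RNAs encode a long form and a shorter form that begins at a later methionine. The stretch between the start codons is shown because it is the part that separates the forms. It is spliced across 2 exons (chr6:17306450-17307946, forward strand, GENCODE M21), and capitals mark the start codons.
Cav1 start codons: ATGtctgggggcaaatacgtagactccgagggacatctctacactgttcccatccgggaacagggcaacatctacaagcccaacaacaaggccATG
The second start is codon 32 of the long form, which has 178 codons against 147 for the short form. The transcription starts of Cav1-201 and Cav1-202 lie 1305 bases apart.

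In the first quantification, transcripts read from the first start codon held 68.1% of Cav1 TPM in replicate 1 and 70.6% in replicate 2, a mean of 69.4 ± 1.74%. Transcripts read from the second start codon held 31.3% and 26.0%, a mean of 28.7 ± 3.79%. In the second quantification the order was the opposite, with 40.4 ± 0.728% from the first start codon and 58.6 ± 0.367% from the second. The gap between the quantifications was wider than the spread between libraries. The main movers were Cav1-201, at 64.0% and 34.8% in the first and second quantification, and Cav1-202, at 11.98% and 41.9%. Cav1-203, another short-form transcript, held 15.4% and 16.7%, or 3.96% and 2.50% by expected counts. Which Cav1 form leads is not settled by these tables.

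Start site windows of 300 bases (RefSeq, GRCm38.p6, forward strand) are shown for the starts of Cav1-201 and Cav1-202. They are shown because the quantifications disagree on the shares of these transcripts. The start of Cav1-203 (position 17307278) lies outside both windows. Capitals mark CANNTG (the E-box), TATAAA (the TATA box) or GGGCGG (the GC box) on either strand.
Cav1 upstream window, chr6:17306085-17306384: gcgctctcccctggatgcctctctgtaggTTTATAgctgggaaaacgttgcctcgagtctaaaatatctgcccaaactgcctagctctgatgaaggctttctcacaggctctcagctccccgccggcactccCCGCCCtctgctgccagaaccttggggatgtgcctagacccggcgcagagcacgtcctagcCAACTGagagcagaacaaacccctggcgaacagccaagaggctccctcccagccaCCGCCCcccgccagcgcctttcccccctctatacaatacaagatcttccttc
Cav1 downstream window, chr6:17307390-17307689: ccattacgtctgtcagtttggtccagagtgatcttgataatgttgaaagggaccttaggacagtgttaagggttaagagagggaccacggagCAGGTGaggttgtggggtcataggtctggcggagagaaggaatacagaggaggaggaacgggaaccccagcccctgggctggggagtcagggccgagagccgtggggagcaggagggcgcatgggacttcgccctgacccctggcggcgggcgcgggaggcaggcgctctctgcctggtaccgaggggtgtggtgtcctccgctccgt
The upstream window held 1 CANNTG, 1 TATAAA and 2 GGGCGG, and the downstream window held 1 CANNTG and neither of the others. Over all 32851 windows of this length, 72.3% held CANNTG, 13.6% TATAAA and 35.7% GGGCGG, so most windows held CANNTG and fewer held the others. A match describes the letters only. GC content was 59.3% upstream and 62.3% downstream, against a median of 52.7% over all windows.

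Mtm1 showed the largest disagreement. Its upstream first exon is in 1 coding transcript, Mtm1-213, which held 52.1% of Mtm1 TPM in replicate 1 and 0% in replicate 2 in the first quantification. In the second it held 82.2% and 80.1%. Coding transcripts with downstream first exons held 31.5% in replicate 1 and 88.4% in replicate 2 in the first quantification, with Mtm1-203 alone at 26.5% and 81.9% of Mtm1 TPM. In the second they held 2.81% and 8.47%, and Mtm1-203 was at or near 0. Mtm1-213 and Mtm1-203 encode the same 603 codons, and the quantifier's intervals for both were wide and overlapped, from 0.000729 to 2.93 TPM for Mtm1-213 in replicate 1. No difference in Mtm1 starts between the libraries is read from these shares. Transcripts not classed as coding held 14.0 ± 3.37% of Mtm1 TPM.

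The starts of Mtm1-213 and Mtm1-203 lie 4239 bases apart, and their windows (RefSeq, GRCm38.p6, forward strand, capitals as above) differ in base composition.
Mtm1 upstream window, chrX:71210517-71210816: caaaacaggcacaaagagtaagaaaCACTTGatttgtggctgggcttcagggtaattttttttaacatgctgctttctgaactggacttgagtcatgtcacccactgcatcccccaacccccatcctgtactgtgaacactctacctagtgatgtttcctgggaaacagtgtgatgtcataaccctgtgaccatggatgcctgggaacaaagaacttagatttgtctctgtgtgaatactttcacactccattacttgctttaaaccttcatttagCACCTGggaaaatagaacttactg
Mtm1 downstream window, chrX:71214756-71215055: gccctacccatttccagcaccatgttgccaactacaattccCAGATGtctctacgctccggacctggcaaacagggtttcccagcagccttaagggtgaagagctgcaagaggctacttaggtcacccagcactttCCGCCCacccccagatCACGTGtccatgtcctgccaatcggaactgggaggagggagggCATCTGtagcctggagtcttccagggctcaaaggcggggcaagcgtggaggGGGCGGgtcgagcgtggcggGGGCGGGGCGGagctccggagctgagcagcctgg
The upstream window held 2 CANNTG and no GGGCGG, with 43% GC. The downstream window held 3 CANNTG and 4 GGGCGG, of which 2 overlap, with 62.7% GC. A window was given for 8 of the 10 genes.

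**Figure D4:**
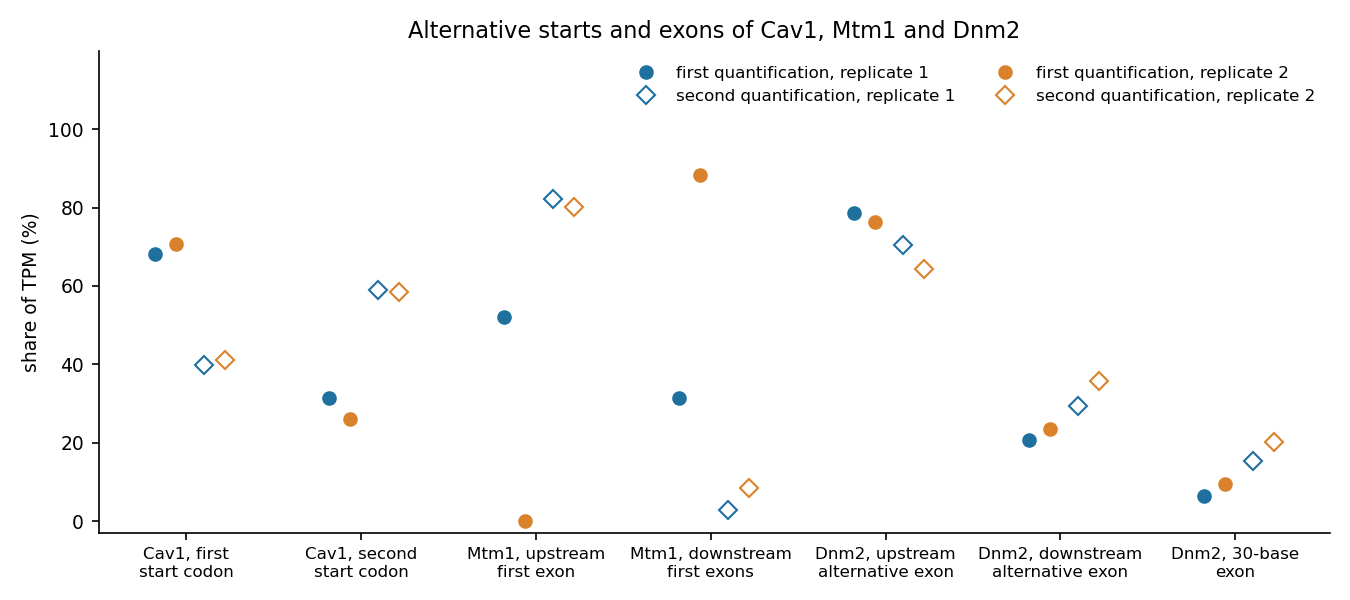
Share of TPM (percent) of alternative starts of Cav1 and Mtm1 and of alternative exons of Dnm2, per library; circles show the first quantification and diamonds the second. For Cav1 the quantifications differ by more than the libraries do; the Mtm1 upstream exon is at 52.1% and 0% in the first and at 82.2% and 80.1% in the second.

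Dnm2 has a pair of alternative exons of 139 bases each, of which a transcript holds 1 or the other. The upstream exon is chr9:21478899-21479037 and the downstream exon chr9:21480407-21480545, forward strand (GENCODE M21). Capitals mark bases that differ between them.
Dnm2 upstream exon: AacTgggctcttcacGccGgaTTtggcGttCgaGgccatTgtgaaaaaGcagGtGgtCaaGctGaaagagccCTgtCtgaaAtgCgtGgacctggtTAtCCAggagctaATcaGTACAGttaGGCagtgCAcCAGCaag
Dnm2 downstream exon: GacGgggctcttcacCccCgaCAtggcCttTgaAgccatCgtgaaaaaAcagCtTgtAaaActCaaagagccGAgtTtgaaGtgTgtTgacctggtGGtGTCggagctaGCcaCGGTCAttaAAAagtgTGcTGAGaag
They shared 95 of 139 bases (68.3%) and differed at 44. The upstream exon was present in 78.7% of the spanning TPM in replicate 1 and 76.4% in replicate 2, a mean of 77.6 ± 1.62%, and the downstream exon in 22.1 ± 2.09%. In the second quantification these were 67.3 ± 4.23% and 32.5 ± 4.41%, so the upstream exon led in both.

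A short Dnm2 exon enriched in muscle is known from mouse and human. An annotated exon of 30 bases (chr9:21487047-21487076, forward strand), held by 1 transcript, the incomplete Dnm2-208, is shown because muscle DNM2 is distinguished by such an insert. The whole exon is in capitals.
Dnm2 exon of 30 bases: CTGTTTCTATACTGAGGAGCTGGTCACAGG
It was present in 6.41% of spanning TPM in replicate 1 and 9.38% in replicate 2, a mean of 7.90 ± 2.10%, and in 17.7 ± 3.35% in the second quantification. Dnm2-208 is short, and by expected counts the exon's share was 1.75%. The 12-base exon (chr9:21490658-21490669) was in 30.2 ± 1.91% and 57.2 ± 5.38% in the first and second quantification. Among Dnm2 transcripts, Dnm2-202 held 42.4% and 31.7% in the first and second quantification, Dnm2-211 11.6% and 10.4%, and Dnm2-204 5.81% and 21.7%. The incomplete Dnm2-212 held 20.2% and 6.68%, and the incomplete Dnm2-208 held 7.11% and 15.9%. Of the remaining genes, Cav3, Cavin2, Cavin3 and Cavin4 have 1 annotated transcript each. Cavin1-201 held 89.0 ± 0.745% of Cavin1 TPM and Cav2-201 held 94.1 ± 0.442% of Cav2 TPM, against 82.1% and 70.2% in the second quantification. The rest of Cavin1 was the noncoding Cavin1-202, at 10.96% and 17.9%. The rest of Cav2 was Cav2-202, at 3.97% and 1.99%, and Cav2-203, at 1.91% and 27.8%. Cavin1-202 and Cav2-203 are also short, with 658 and 694 bases. By expected counts Cavin1-202 held 1.99% and 2.16% in the first and second quantification, and Cav2-203 held 0.453% and 5.57%.

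The libraries were compared by the exact binomial test (two-sided) on counts that were scaled by TMM, with p-values adjusted by Benjamini-Hochberg over 17245 genes, with replicate 1 over replicate 2. Over all genes tested 10.7% were higher in replicate 1 and 10.6% in replicate 2, or 21.3% in either direction. Of the 10 genes, 1 was higher in replicate 1 and 4 in replicate 2, and 5 did not pass. The median size of the difference was 0.10 on the log2 scale, against 0.13 for 12078 genes of at least 1 TPM. The least sequenced of the 10 was Mtm1, with 943 counts over both libraries, and of the 6245 genes with at least as many counts 37.9% passed.

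Dnm2 was higher in replicate 1, by 0.23 on the log2 scale (adjusted p = 0.000105, exact binomial test). Cavin4 was lower in replicate 1 with a log2 difference of -0.20 (adjusted p = 2.2e-08), Cav3 with -0.15 (adjusted p = 0.0195), Bin1 with -0.11 (adjusted p = 9.3e-09) and Cavin1 with -0.09 (adjusted p = 8.9e-05), all by the exact binomial test. Scaled by library totals without TMM, Cav3 did not pass (-0.13, adjusted p = 0.0505, exact binomial test). When the libraries were scaled by the added ERCC RNAs instead, the median of all genes moved from 0.01 to 0.30 and Cavin4, Cav3, Bin1 and Cavin1 reversed to positive values, so their direction holds relative to the bulk of genes and not relative to the added RNA. Under TMM Cav1, with 0.02, and Cav2, with 0.05, did not pass (adjusted p = 0.652 and 0.637, exact binomial test). Under ERCC scaling both passed, with 0.31 and 0.35 (adjusted p = 9.7e-39 and 3.2e-07, exact binomial test). Cavin2 had -0.06, Cavin3 -0.19 and Mtm1 -0.08 under TMM, and none of these passed (adjusted p = 0.280, 0.0849 and 0.649, exact binomial test). With ERCC scaling Cavin2 and Mtm1 passed at 0.23 and 0.21, and Cavin3 did not pass at 0.10 (adjusted p = 6.4e-08, 0.0470 and 0.291, exact binomial test). In the second quantification Cavin2 did pass, with -0.10 (adjusted p = 0.0377, exact binomial test), and 5 of the 10 were higher in replicate 2.

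Cell markers moved with the libraries as well. Over all 17245 genes tested, 1848 were higher in replicate 1 and 1823 in replicate 2 under TMM, against 8756 and 296 under ERCC scaling. Under TMM 8 of 8 muscle fibre markers were lower in replicate 1, and 9 of 12 endothelial markers were higher in it. The fibre markers have many counts, so a small difference passes, such as -0.08 for Myh4. Under ERCC scaling 7 of the 8 fibre markers were higher in replicate 1 and 1 was lower, and 12 of 12 endothelial markers were higher. Adipocyte markers summed to 176 TPM in replicate 1, against 153 TPM in replicate 2, but Fabp4, which endothelial cells also express, made up 170.63 and 129.68 TPM of these sums. Without Fabp4 the sums were 5.50 TPM in replicate 1 and 22.9 TPM in replicate 2, of which Cfd made up 1.62 and 10.3 TPM. Of all 10 markers, Fabp4 included, 7 were higher in replicate 2 under TMM, and only Fabp4 was higher in replicate 1. Under ERCC scaling the counts were 7 and 2. Several of the 7 had few counts in replicate 1, with 1 for Retn, 7 for Lep and 11 for Plin1.

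Fibro-adipogenic progenitor markers summed to 2662 TPM in replicate 1, against 2171 TPM in replicate 2, and without the collagen gene Col1a1 to 1065 and 1053 TPM. Of these, 4 of 10 were higher in replicate 1 and 1 in replicate 2 under TMM, and 10 in replicate 1 under ERCC scaling. Pericyte and smooth muscle markers summed to 1102 TPM in replicate 1, against 1112 TPM in replicate 2, and without Des, which muscle fibres also express, to 400.5 and 389 TPM. In that list 2 of 10 were higher in replicate 1 and 3 in replicate 2 under TMM, and 8 and 0 under ERCC scaling. Schwann cell markers summed to 130 TPM in replicate 1, against 178 TPM in replicate 2, with 5 of 10 higher in replicate 2 under TMM and 2 under ERCC scaling. The counts over all genes tested, given above for each scaling, are the background for all these marker lists. The part of the marked cell types in the differences of the caveola and T-tubule genes was not tested.

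**Figure D5:**
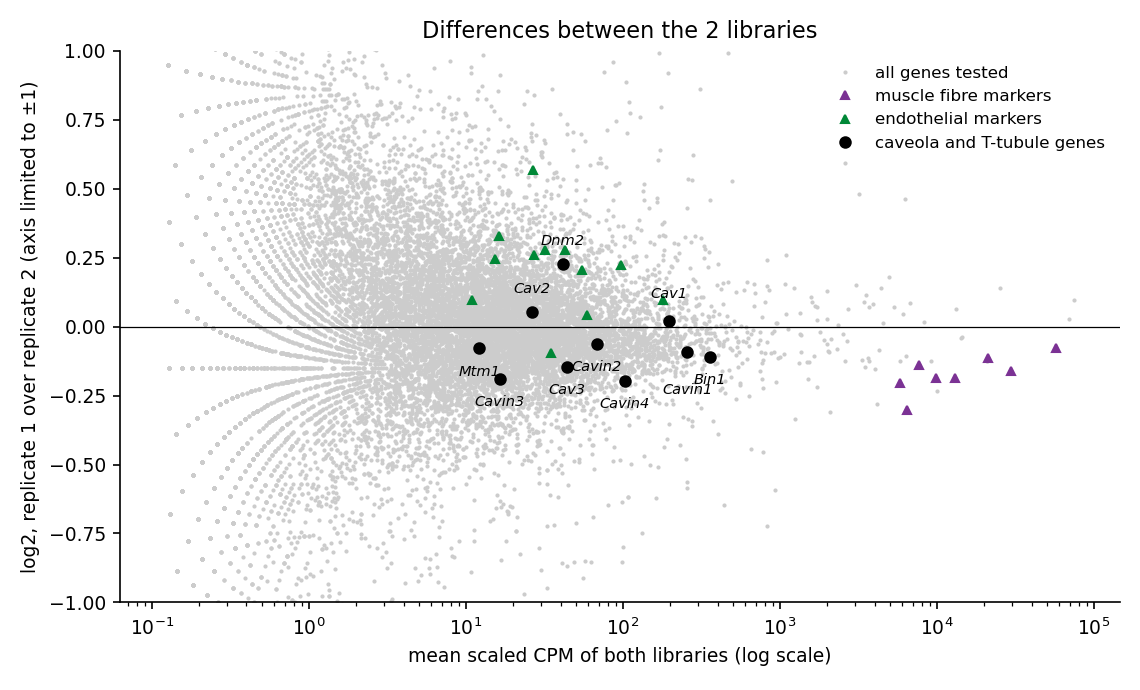
Log2 difference, replicate 1 over replicate 2 with TMM scaling, against mean scaled CPM (read counts relative to library size, log axis) for all genes tested, with the 10 genes named; the vertical axis is limited to 1 on either side. The 8 muscle fibre markers lie below 0, most endothelial markers lie above it, and the 10 genes lie between -0.20 and 0.23.

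Genes that act with these 10 were mostly present. Of 48 such genes 42 were detected, and 47 were tested. Under TMM 8 were higher in replicate 1 and 9 in replicate 2, against 10.7% and 10.6% of all genes tested. Among the 6245 genes with at least as many counts as Mtm1, 37.9% passed in either direction. Under ERCC scaling the counts were 40 and 0, against 8756 and 296 of all 17245 genes tested. In the second quantification they were 6 and 14, against 1894 and 2133 of 18600 genes. Of the caveola neck and accessory genes 10 of 11 were detected, led by the membrane-bending Pacsin3 at 127 ± 1.34 TPM and the membrane-repair genes Trim72 at 112 ± 1.52 TPM and Dysf at 42.6 ± 0.735 TPM. The caveola-neck ATPase Ehd2 had 41.2 ± 0.106 TPM, and Pacsin1, the neuronal form, was not detected. Of this list 3 of 11 were higher in replicate 2 and 0 in replicate 1 under TMM, and 9 were higher in replicate 1 under ERCC scaling.

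The other amphiphysin and dynamin family genes were low apart from Dnm1l, which divides mitochondria, at 32.4 ± 1.15 TPM. Of these 6 genes 4 were detected, and Dnm1 had 4.18 ± 0.361 TPM, Bin3 2.85 ± 0.566 TPM and Dnm3 2.39 ± 0.643 TPM. Of the myotubularin family 10 of 11 were detected, and Mtmr3 at 16.04 ± 0.120, Mtmr6 at 14.4 ± 0.544, Mtmr1 at 11.2 ± 0.325 and Mtmr9 at 10.8 ± 1.03 TPM were all above Mtm1. Of the phosphoinositide kinases 7 of 8 were detected, with Pip5k1c at 8.69 ± 0.453 TPM, Pip5k1a at 7.73 ± 0.177 TPM and Pik3c2b at 6.10 ± 0.841 TPM. Pik3c3, which makes the phosphoinositide that MTM1 dephosphorylates, had 5.63 ± 0.884 TPM. Of the triad partners 11 of 12 were detected, with the intermediate filament gene Des at 712 ± 15.6 TPM, the Z-disc gene Tcap at 411 ± 134 TPM, the calcium release channel Ryr1 at 393 ± 20.03 TPM and the voltage sensor Cacna1s at 259 ± 5.82 TPM. Bin1 was close to Cacna1s in the first quantification, while in the second the means were 417 TPM for Bin1 and 245 TPM for Cacna1s. Ccdc78 was listed at 0 in both libraries. Tcap differed most among the triad partners, with 505.72 TPM in replicate 1, against 316.7 TPM in replicate 2, a log2 difference of 0.62 (adjusted p = 8.8e-211, exact binomial test).

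Overlapping genes were checked because reads of a pair can be shared. All lie on the opposite strand. Tmed1 over Dnm2 had 11.67 and 13.27 TPM, A830052D11Rik over Bin1 had 1.99 and 1.8 TPM, and the others were at 0.11 TPM or less. The files do not state whether counting used strand, so a part of the Dnm2 counts from Tmed1 cannot be told apart.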

How the data were processed

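Gene and transcript levels of the 10 genes were taken from 2 libraries of 1 group. Per the labels and the deposited description, the build was mm10 with GENCODE M21. For the aligner and the quantifiers, names were not given in the sources used here. As deposited by the authors, the tables hold expected counts (estimated reads, not normalised) and TPM per gene and transcript, made from transcriptome alignments (first quantification), and a second set made directly from the reads. The deposited interval bounds are signal values in TPM, the deposited transcript percent is a share of a gene's TPM, and the deposited posterior SD score was 0 for all 10 genes and was not used. Numeric entries (26248) and 97 added RNAs were left out of gene tests and library totals, and 52 transcripts of 141767 belong to the 10 genes. The reference is not specific to CAST alleles.

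Transcript shares were computed within a gene, and exon shares over transcripts that span the exon. Expected counts were rounded and tested with a two-sided exact binomial test (scipy 1.17.1) given TMM library sizes (edgeR 4.0.16), at 10 counts or more over both libraries and an adjusted p of 0.05; DESeq2 1.42.0 size factors were an alternative. The test covers counting error only. Levels, ratios and shares carry no test, since an exact test over 2 libraries cannot go below 0.5. Python 3.11.15 and R 4.3.3 were used. The 10 genes and the gene lists were chosen with earlier results of these data known. Named are the 10 genes, the 4 genes of highest mean TPM in a pathway list (marker lists are given as sums and counts), transcripts of at least 10% in either quantification, and genes marked by a result (Pacsin1, Ccdc78, the other Bin1 transcripts, Dnm2-208, Cav2-202, and Fabp4, Col1a1 and Des as the highest marker of a list), chosen after their values were seen.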

Additional observations from a re-analysis of the deposited data

How the results depend on the processing

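No paired analysis was possible because the series has a single group. Alternatives for Cav1 start codons, the Mtm1 first exon, the Dnm2 exon pair and marker sums without the highest marker were added after seeing the data. The second quantification raised the level of each of the 10 genes, by 1.26 to 1.65 times, against a median of 1.35 over 12156 genes. The second quantification moved the log2 ratio to -1.10 for Cav3 over Cav1, 1.80 for Cav3 over Cav2, -0.92 for Cavin4 over Cavin1, 2.29 for Cavin4 over Cavin3, -0.042 for Cavin1 over Cav1 and -0.97 for Mtm1 over Mtmr1. A pseudocount of 1 TPM gave 2.24 for Cavin4 over Cavin3, 7.41 for Bin1 over Amph, 1.97 for Dnm2 over Dnm1 and -1.08 for Mtm1 over Mtmr1, and the posterior mean gave 1.95 for Dnm2 over Dnm1. None of these ratios changed sign. The second quantification gave shares of 56.4% for Bin1-205, 39.0% for Bin1-206, 43.4% for the 72-base Bin1 exon, 67.3% for the upstream Dnm2 exon and 81.2% for the Mtm1 upstream exon, whose first-quantification mean was 26.0%. By expected counts the shares were 74.97%, 21.1% and 25.01% for the Bin1 items and 82.2% for the Dnm2 exon. The log2 ratio of first over second Cav1 start codon was 1.28, became 2.00 by counts and reversed to -0.54 in the second quantification; the cause was not tested. With ERCC totals, 8756 genes were higher in replicate 1 and 296 in replicate 2, and 9 and 0 of the 10. The differences reversed to 0.15 for Cav3, 0.20 for Cavin1, 0.23 for Cavin2, 0.093 for Cavin4, 0.18 for Bin1 and 0.21 for Mtm1. Cav1 and Cav2, which did not pass under TMM, passed with ERCC totals at 0.31 and 0.35. With library totals Cav3 no longer passed (-0.13, adjusted p = 0.0505, exact binomial test). In the second quantification Cavin2 passed (-0.10).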
